A study of Mus musculus with 6 samples.

Results

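Genes of the Rab, Arf and kinesin families, which build the machinery of membrane traffic, were examined for AGO2 target peaks in pyramidal neurons of mouse cortex. Members were the protein-coding mouse genes whose symbol is Rab, Arf or Kif followed by a number and optional letters. This gave 105 genes, 61 Rab, 6 Arf and 38 Kif genes, among 21887 nuclear protein-coding genes of the annotation. A peak was credited to a gene when its midpoint lay in the span of that gene on mm10. Of the 2197 deposited peaks, 47 lay in members, and 15 of the 105 members held at least 1.

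The study isolated RNA bound to AGO2, the Argonaute protein that carries a microRNA (miRNA) to its target, from the cortex at postnatal day 14. The animals came from a cross of VGLUT2-Cre to a conditional Spy3-AGO2 allele, so that Cre from the gene of the vesicular glutamate transporter VGLUT2 switched on a tagged AGO2. The tag couples to SpyCatcher3 on a resin. The 6 libraries, 2 each of miRNA, target and input from whole lysate, share this genotype, age and tissue, and an untagged group was not analysed here. The target side was used as 1 peak list for the series, with no values per library, so each result on peaks lacks a replicate check and is given without a test between groups. The 2 miRNA libraries held 66854 and 75658 counts. Whether the replicates came from separate animals is not stated in the labels.

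Rab and Arf proteins are small GTPases that cycle between a GDP-bound form and a GTP-bound form. In the active form they sit on a given membrane and recruit effectors such as coats, tethers and motors. Kinesins are motors that mostly walk toward the plus ends of microtubules and carry vesicles, mitochondria and other cargo down axons and into dendrites. A miRNA guides AGO2 mainly to sites in the 3′ untranslated regions of messenger RNAs. These regions could not be marked without exon models, so the 3′ end of each span was the reference point for position.

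The labelled cell type was first set against its marker genes. Of 10 markers of excitatory neurons, 5 held a peak, among them Slc17a7, the main cortical vesicular glutamate transporter, with 5, Camk2a with 4, and Nrgn and Tbr1 with 1 each. Slc17a6, the gene of VGLUT2 itself, held 0. Genes marking other cells also held peaks. Among them were the astrocyte glutamate transporter gene Slc1a2 with 45 peaks, Mbp (2 peaks) and Cnp (1 peak), which code for myelin proteins, and the interneuron gene Sst with 1. By list, 1 of 7 astrocyte, 3 of 8 oligodendrocyte and 1 of 6 inhibitory neuron markers held a peak. Peaks were found in 0 of 6 microglial and 0 of 5 endothelial markers, with upper ends of the exact intervals at 45.9 and 52.2%. Of all nuclear protein-coding genes 4.30% held a peak, so lists this short cannot tell these markers from other genes. The part of RNA from other cells in the results on Rab, Arf and Kif genes was not tested.

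The first question was how often members held a peak. Of all members, 14.3% held at least 1 peak (15 of 105, exact 95% interval 8.22 to 22.5%), beside 4.30% of all nuclear protein-coding genes. The 3 families had similar shares. Peaks were found in 9 of 61 Rab genes (14.8%, exact interval 6.98 to 26.2%), in 1 of 6 Arf genes (16.7%, 0.421 to 64.1%) and in 5 of 38 Kif genes (13.2%, 4.41 to 28.1%). The 3 intervals overlap, and that of the Arf family, with 6 genes, is the widest. At least 2 peaks were held by 9 members (8.57%), 4 Rab, 1 Arf and 4 Kif genes, beside 1.37% of all nuclear protein-coding genes. Peaks in the last 10% of the span were held by 14 members (13.3%), beside 2.85% of all nuclear protein-coding genes. These intervals treat genes as independent draws. How strongly each gene was expressed was not measured here. An unbound transcript and an absent transcript therefore cannot be told apart among the 90 members without a peak. The same holds for all nuclear protein-coding genes, so the shares set side by side were not matched on expression.

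**Figure D1:**
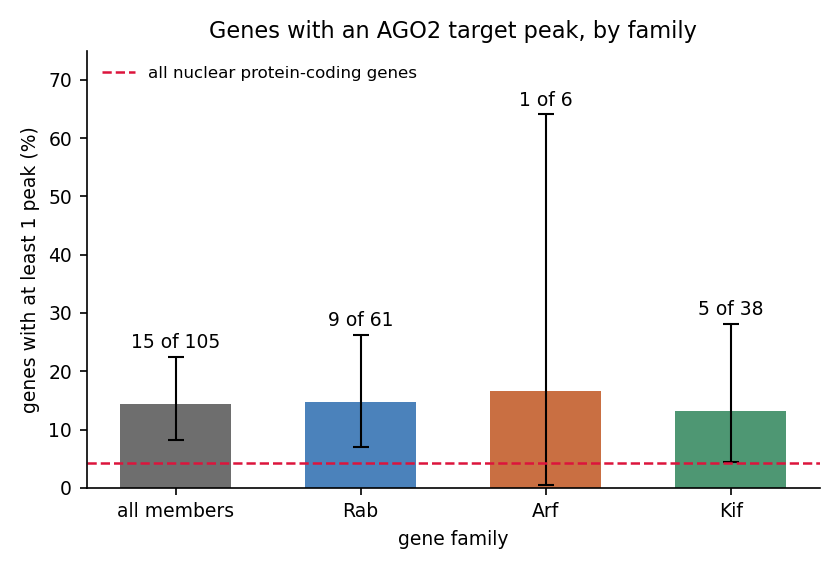
Percent of genes with at least 1 target peak (y axis) for all members and for the Rab, Arf and Kif families (x axis), with exact 95% intervals as error bars. The bars stand at 14.3, 14.8, 16.7 and 13.2%, and the dashed line at 4.30% is the share of all nuclear protein-coding genes.

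Longer genes held peaks more often, so shares were also set out by span. Members had a median span of 27.6 kb, beside 17.2 kb over all nuclear protein-coding genes. Members with a peak had a median span of 40.7 kb (3.91 to 226.8 kb), and those without one 26.6 kb (2.27 to 403.7 kb). For all nuclear protein-coding genes with a peak the median was 60.5 kb. When all genes were put in 5 classes of equal size by span, 1.26% of the shortest class and 11% of the longest held a peak. In the longest class, above 57.1 kb, 5 of 28 members did (17.9%). In the next, from 24.6 to 57.1 kb, 6 of 33 members did (18.2%), beside 4.25% of all genes of that class. From 11.7 to 24.6 kb there were 3 of 25 (12.0%, beside 2.72%), from 4.17 to 11.7 kb 0 of 12 (beside 2.28%), and below 4.17 kb 1 of 7 (14.3%), which was Rab3a. The share among members was thus above that of all genes in 4 of the 5 classes, with few members in each. Among Rab genes the medians with and without a peak were 25.2 and 22.9 kb, and among Kif genes 86.6 and 45.5 kb.

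**Figure D2:**
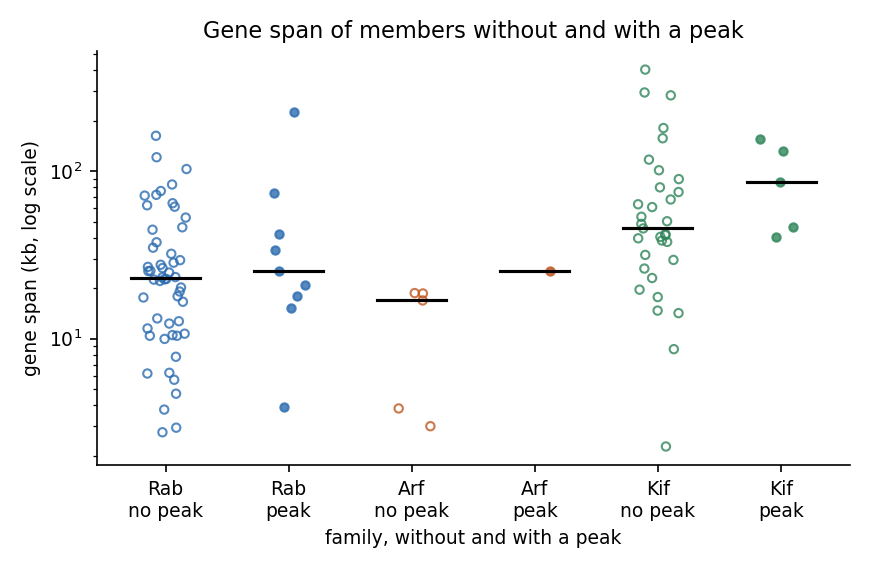
Gene span in kb on a log scale (y axis) for members without a peak (open circles) and with a peak (filled circles) in each family (x axis), with black lines at the medians. Kif genes with a peak lie between 40.7 and 155.5 kb, while Rab genes with a peak reach from 3.91 to 226.8 kb and overlap those without one.

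Among Rab genes, peaks were most numerous in Rab6b. Rab6 proteins act at the Golgi and in transport between the Golgi, the endoplasmic reticulum and the cell surface, and Rab6b is the form enriched in brain. Rab6b (chromosome 9, 103111667 to 103185276, plus strand) held 10 peaks, a number that 13 nuclear protein-coding genes reached or passed, Rab6b included. All 10 lay in the last 3.8 kb of a span of 73.6 kb. Counted from the 3′ end, their midpoints stood at 48, 357, 1013, 1629, 2239, 2318, 2596, 3254, 3650 and 3800 nt. Their widths in the same order were 41, 134, 225, 131, 68, 43, 83, 46, 44 and 37 nt. The widest, at 103184151 to 103184375, was also the widest peak of any member. The peaks covered 852 nt, which is 22.5% of the 3791 nt from the first to the last, and the gaps between neighbours ran from 24 to 593 nt.

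Its paralog Rab6a (chromosome 7, 100607575 to 100641268, plus strand) held 3 peaks, also close to the end. Their midpoints stood 267, 1491 and 1851 nt from the 3′ end, and they were 147, 154 and 68 nt wide. They covered 21.8% of the 1691 nt they spread over, a density like that of the Rab6b peaks over a shorter stretch. The other 9 listed Rab genes of the endoplasmic reticulum and Golgi, among them Rab1a, Rab1b, Rab2a and Rab2b, held 0 peaks.

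Of the 8 listed Rab genes of synaptic vesicles and regulated secretion, 2 held a peak (25%, exact interval 3.19 to 65.1%). The share of all nuclear protein-coding genes was 4.30%. Rab3a, the most abundant Rab of synaptic vesicles, which acts in transmitter release, is a short gene (chromosome 8, 70754703 to 70758608, plus strand, 3.91 kb) and held 4 peaks. They stood 312, 403, 1442 and 2142 nt from the 3′ end and were 34, 65, 56 and 37 nt wide. Only the first lay in the last 10% of the span, and the second, at 10.3%, lay just outside it. On so short a span, 10% is a narrow window, and all 4 peaks lay within 2.14 kb of the end. Rab3c, a close relative of Rab3a, held 1 peak of 155 nt, 6989 nt before the end of a span of 226.8 kb. Rab3b, Rab3d, Rab26 and Rab27a were among those with 0.

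Rab genes of recycling routes held a peak in 3 of 8 cases (37.5%, exact interval 8.52 to 75.5%), beside 4.30% of all nuclear protein-coding genes. Rab14, which acts between the Golgi and endosomes (chromosome 2, 35180205 to 35201120, minus strand), held 2, at 35180215 to 35180248 and at 35181478 to 35181623. The first, 34 nt wide, had its midpoint 27 nt before the 3′ end. The second, 146 nt wide, stood 1346 nt before it. Rab35, which acts in fast recycling to the plasma membrane, held 1 peak of 47 nt at 1110 nt from the end. Rab11b, of the recycling endosome, held 1 of 36 nt at 4210 nt, 23.4% of the span away from the end, and was the only member with a peak whose peaks all lay before the last 10%. Rab4a, Rab4b, Rab11a and Rab15 held 0.

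The remaining Rab genes with a peak had 1 each. Rab22a, of early endosomes, held 1 of 83 nt at 237 nt from the end, while the other 5 listed early endosome genes, among them Rab5a, Rab5b, Rab5c and Rab21, held 0. Rab12, counted here in 1 list of 5 genes with Rab8a, Rab8b, Rab10 and Rab13, held 1 of 66 nt at 1033 nt from the end, while the others in that list held 0. The 5 listed genes of late endosomes and lysosomes, among them Rab7, Rab7b, Rab9 and Rab9b, held 0. The upper end of the exact interval for that list is 52.2%, so it cannot be told from the 4.30% of all nuclear protein-coding genes. For Rab7, the Rab of late endosomes, a peak of 33 nt on its own strand (chromosome 6, 87997231 to 87997263) lay 1.86 kb past the annotated 3′ end and in no gene span. Lengthening every span of known strand by 5 kb, a choice made after the data were seen, credited it to Rab7 and raised the members with a peak to 16. The 18 Rab genes in no list held 0 peaks. They include Rab3ip and Rab5if, which the naming rule takes in although they are partners of Rab proteins and not GTPases.

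**Figure D3:**
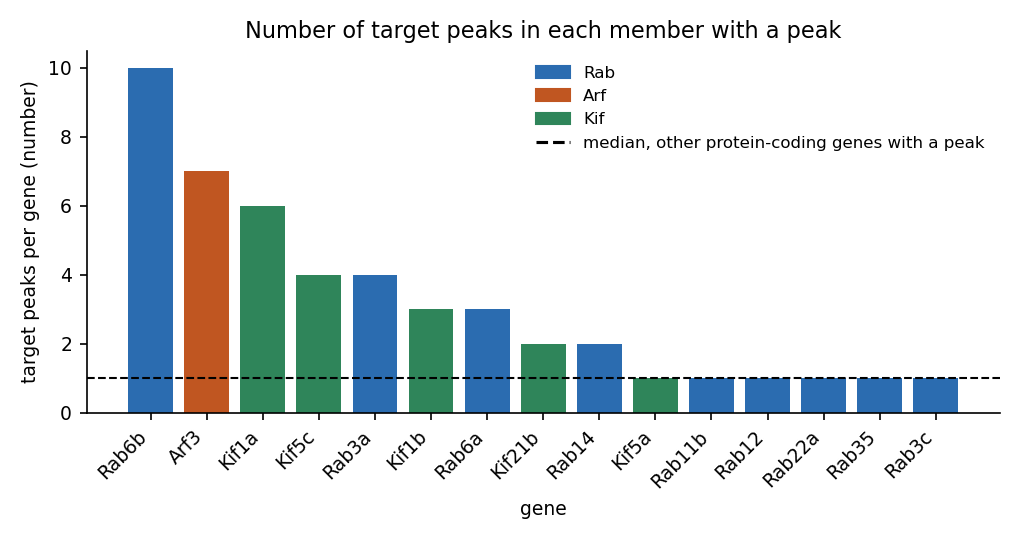
Number of target peaks (y axis) in each of the 15 members with a peak (x axis), coloured by family, with a dashed line at the median of 1 for other protein-coding genes with a peak. Rab6b stands highest with 10, followed by Arf3 with 7 and Kif1a with 6, and 6 members stand at 1.

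Arf proteins recruit coats at the Golgi and, in the case of Arf6, act at the plasma membrane. Arf3, a class I Arf, was the single Arf gene with peaks. It lies on chromosome 15 (98737624 to 98763118, minus strand) and held 7, a number that 33 nuclear protein-coding genes reached or passed. Their midpoints stood 57, 220, 494, 800, 1668, 2225 and 5159 nt from the 3′ end, and their widths were 72, 116, 41, 135, 83, 117 and 95 nt. Of these, 6 lay in the last 10% of the span of 25.5 kb and the farthest at 20.2%. Arf1 and Arf2, the other class I genes, held 0, as did the class II genes Arf4 and Arf5 and the class III gene Arf6.

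Among the kinesin genes that match the naming rule, all 5 with a peak belonged to the kinesin-1, kinesin-3 and kinesin-4 subfamilies. The counts were 2 of 3, 2 of 7 and 1 of 5 genes, with exact intervals of 9.43 to 99.2%, 3.67 to 71% and 0.505 to 71.6%. Kif1a, a kinesin-3 that carries precursors of synaptic vesicles along axons (chromosome 1, 93015455 to 93102039, minus strand), held 6 peaks. Those nearest the end stood at 156, 466, 2669, 2910 and 5833 nt and were 51, 165, 56, 99 and 101 nt wide. The sixth, 74 nt wide at 93078765 to 93078838, stood 63.3 kb before the end, 73.2% of the way back along the span. Kif1b, a kinesin-3 known to carry mitochondria and vesicle precursors (chromosome 4, 149176319 to 149307773, minus strand), held 3. They stood 64, 184 and 1119 nt from the end of a span of 131.5 kb, so all lay in its last 0.851%. Kif1c, Kif13a, Kif13b and Kif14, of the same subfamily, held 0.

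Kinesin-1, the main motor of fast axonal transport, is built on heavy chains from Kif5a, Kif5b and Kif5c. Kif5c (chromosome 2, 49619286 to 49774778, plus strand) held 4 peaks, at 41, 267, 3081 and 102971 nt from the end, of 36, 63, 80 and 73 nt. The farthest stood at 66.2% of the span from the end, and the others in the last 2.0%. Kif5a held 1 of 97 nt at 1522 nt, and Kif5b held 0. Kif21b, a kinesin-4 of neurons (chromosome 1, 136131390 to 136178001), held 2, of 79 nt at 105 nt and of 95 nt at 2034 nt. The gene strand of Kif5a and Kif21b was not in the table used, and their distances were read along the strand of their peaks. Kif4, Kif7, Kif21a and Kif27 of kinesin-4 held 0. Peaks were also found in 0 of 4 kinesin-2 genes (Kif3a, Kif3b, Kif3c and Kif17), which carry cargo into dendrites and cilia. The same held for 0 of 4 kinesin-13 genes (Kif2a, Kif2b, Kif2c and Kif24), which take microtubules apart. Among 11 kinesins of cell division, including Kif2c, Kif4, Kif11 and Kif14, 0 held a peak. The exact intervals reach up to 60.2% for each list of 4 and 28.5% for the list of 11. Of all nuclear protein-coding genes 4.30% held a peak, so lists this short cannot tell subfamilies with 0 from other genes.

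**Figure D4:**
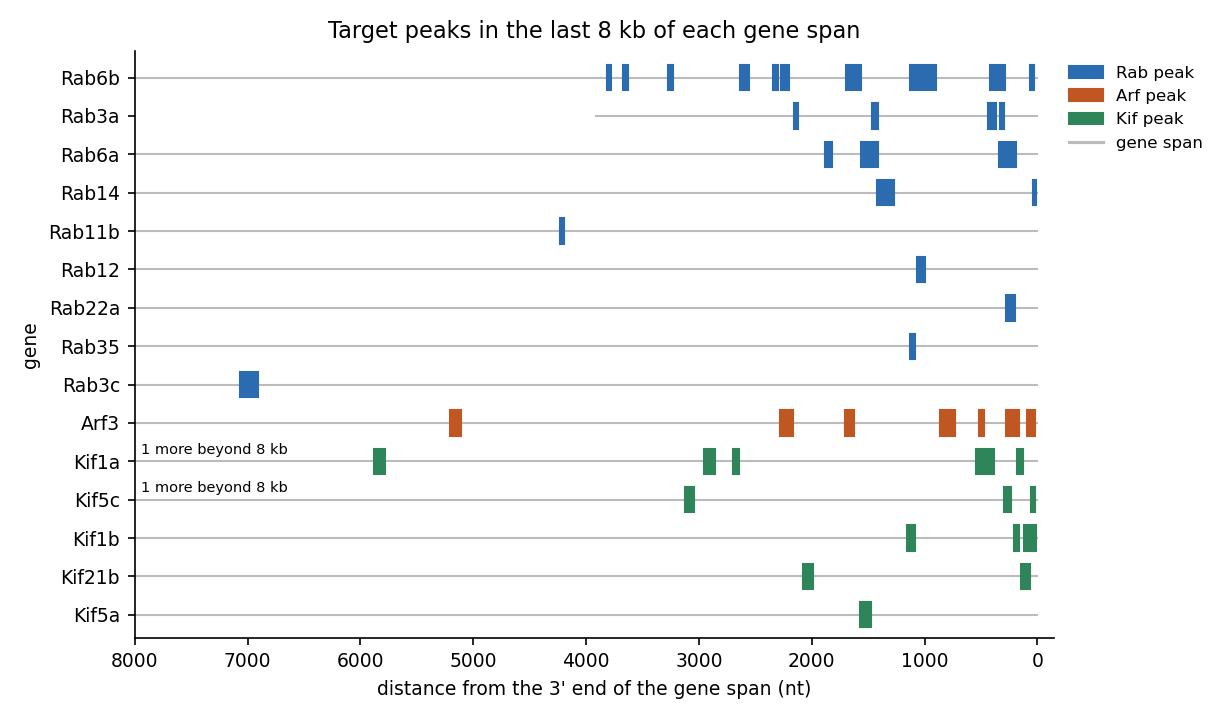
Target peaks drawn to scale by their distance in nt from the 3′ end of the gene span (x axis, end at the right) in each of the 15 members with a peak (y axis), with grey lines for the span up to 8 kb. Peaks crowd toward the end in most genes, and those of Rab6b are spread over its last 3.8 kb, while 1 peak each of Kif1a and Kif5c, at 63.3 and 103.0 kb, lies outside the range shown.

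Taken over all 47 peaks, the median distance to the 3′ end was 1.44 kb, with quartiles of 0.289 and 2.63 kb. For the 1677 peak and gene pairs of the 926 other protein-coding genes with a peak, the median was 1.5 kb and the quartiles were 0.401 and 7.26 kb. The medians were alike, while the upper quartile was nearer the end in members. Distances in kb are bounded by span. The median span was 40.7 kb in members with a peak and 60.5 kb in all nuclear protein-coding genes with a peak. In members 40 of 47 peaks lay in the last 10% of the span (85.1%, exact interval 71.7 to 93.8%), against 1109 of 1677 in the other genes (66.1%), a difference that was not tested. Without Rab6b the share was 81.1%. By family the shares were 20 of 24 for Rab, 6 of 7 for Arf and 14 of 16 for Kif genes. The other 7 peaks belonged to Rab3a (3), Rab11b, Arf3, Kif1a and Kif5c. All member peaks of known gene strand lay on that strand. Of the 1022 pairs in other genes that did so, 763 lay in the last 10%. Within 2 kb of the end lay 61.7% of member peaks and 55.3% of pairs in other genes, shares closer to each other than those for the last 10%. Peaks of the same gene share its transcript and are not independent, so these intervals are too narrow. Counted by gene, by the median position of its peaks, 86.7% of the members with a peak fell in the last 10%. A peak within 100 nt of the end was found in 5 of the 15 members (Rab14, Kif5c, Rab6b, Arf3 and Kif1b, 33.3%) and in 191 of the 926 other genes (20.6%). Counted by peak, the shares were 10.6% in members and 11.5% in other genes.

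Peak strand followed gene strand in every case that could be read. The gene strand was known for 44 of the 47 peaks, and all 44 lay on it, as did 86.4% of 1183 such pairs in other genes. Of those 1183, 96.0% of the pairs in the last 10% of a span and 66.8% of those before it lay on the gene strand. Each of the 47 peaks lay in 1 gene span only. Among other genes with a peak in 1 span, 88.6% of 1045 pairs lay on the gene strand. In members, the 2 far peaks of Kif1a and Kif5c also lay on the gene strand. Without exon models it is not known here whether they fell in exons or introns.

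The width of peaks in members ran from 34 to 225 nt, and the median was 73.0 nt (quartiles 46.5 and 104.5 nt). In other protein-coding genes the median was 58.0 nt (quartiles 38.0 and 93.0 nt), and 64.0 nt for those in the last 10% of a span. Peaks of 30 nt or less made up 0 of 47 in members, for which the upper end of the exact interval is 7.55%. In other genes they made up 17.1%, but only 3.97% of those in the last 10% of a span and 42.6% of those before it. The members' share thus lay near that of other peaks at gene ends. Peaks wider than 100 nt numbered 13 of 47 (27.7%) in members and made up 24.0% of other peaks at gene ends. Within Rab6b, widths ranged from 37 to 225 nt, while the 4 peaks of Rab3a all stayed at or below 65 nt.

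**Figure D5:**
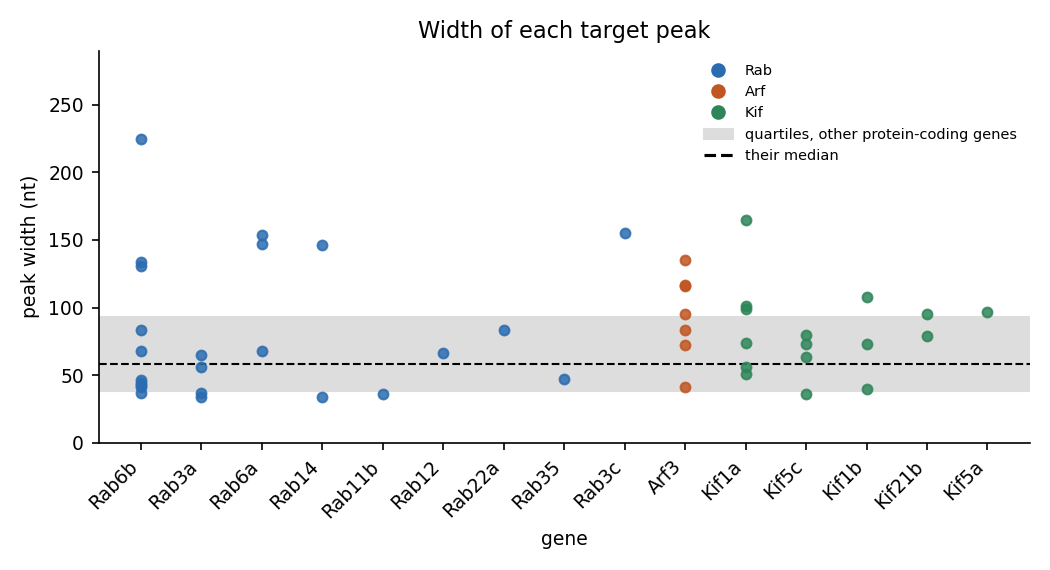
Width in nt (y axis) of each peak, as a point, in the 15 members (x axis), coloured by family, with the quartiles of peaks in other protein-coding genes as a grey band (38.0 to 93.0 nt) and their median of 58.0 nt as a dashed line. The widest point is the 225 nt peak of Rab6b, and the narrowest, at 34 nt, belong to Rab3a and Rab14.

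Members with a peak often held several. Of the 15, 9 held at least 2 (60%), against 290 of 926 other genes with a peak (31.3%). The median was 2 peaks per gene, against 1. The mean was 3.13, and 2.64 without Rab6b, against 1.81. When peaks within 100 nt of each other on a strand were merged, 43 of the 47 were left and Rab6b held 9.

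Genes that regulate or work with these families were then counted, from 6 lists of 184 genes in all, of which 30 (16.3%) held a peak, beside the 4.30% of all nuclear protein-coding genes. The list of kinesin partners had the highest share, 10 of 28 (35.7%). It also takes in Kifc1, Kifc2, Kifc3 and Cenpe, which are kinesins that the naming rule leaves out. Of these, Kifc3 held 1 peak. The list was led by Clstn1 with 8 peaks, a membrane protein that links cargo to the kinesin light chain. Apba1, an adaptor of neuronal vesicle transport, held 4. Klc1, a kinesin light chain, and Spag9, a scaffold of motors, held 2 each. Regulators of Arf proteins followed with 9 of 39 (23.1%), led by Psd3 with 5, and by Agap2, Git1 and Psd with 2 each. Psd and Psd3 are exchange factors of Arf6, while Git1 and Agap2 are GTPase-activating proteins of Arfs.

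Dynein is the motor that runs opposite to most kinesins, and dynactin is its cofactor. Of 24 genes of dynein, dynactin and their regulators and adaptors, 3 held a peak (12.5%). These were Pafah1b1, which codes for the dynein regulator Lis1, with 4, the light chain gene Dynll2 with 2 and the dynactin gene Actr1a with 1. Regulators of Rab proteins held one in 4 of 42 (9.52%): Madd, an exchange factor of Rab3, with 2, and Dennd6a, Rabgef1 and Tbc1d14 with 1 each. Effectors of Rab proteins held one in 3 of 33 (9.09%), which were Lrrk2, Rab11fip3 and Rab11fip4 with 1 each. Of the Arf-like and Sar GTPase genes, 1 of 18 held one (5.56%), near the share of all nuclear protein-coding genes. It was Arl8a, whose product couples lysosomes and synaptic vesicle precursors to kinesins. The lists were matched on neither span nor expression.

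Members also host miRNA genes, whose products were counted in the miRNA libraries. The spans of 7 members contain 1 hairpin each, with 11 mature forms in RefSeq on GRCm38.p6. Of the 11 forms, 10 had 0 counts in both libraries. miR-6925-3p, from Kif1c, had 0 counts in replicate 1 and 1 in replicate 2. With 0 counts, the share could still reach 0.00449% of replicate 1 or 0.00397% of replicate 2. These limits are 3 counts over the library total and cover counting error only, with duplicate reads kept. Hairpins in genes with a peak are shown with the 1 counted form, 5′ to 3′, with the seed (bases 2 to 8), the stretch that pairs with targets, in capitals.
miR-7030-5p: uGGGGAGGuggcugugcuaguc
miR-7030-3p: cUUGCUCUguuaucucuccag
miR-6340: gUCAGCAGcagcuucgcuuuggc
miR-6925-3p: uCCCCUUUuaucccucag

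The 4 seeds differ from one another. Mir7030 lies in Rab35 on the gene strand (chromosome 5, hairpin 392 nt from the Rab35 peak). Mir6340 lies in Rab22a on the opposite strand (chromosome 2, hairpin 759 nt from the Rab22a peak). Neither peak touched its hairpin, and the mature forms of both hairpins had 0 counts in both libraries.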

How the data were processed

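Per the labels' protocols, Spy3-AGO2 with its RNA was cut out of a gel at 70 to 150 kDa and sequenced as 100 bp single reads. Tools listed in the submitters' processing notes, without roles, include the aligners STAR 2.5.2a and Bowtie2 2.4.2 and the trimmer cutadapt 2.10. They name the mm10 build. The peak caller, and whether libraries were pooled or set against the input, were not given in the sources used here. Each peak of the authors' deposited list carries a score of 0, so peaks were not ranked. The miRNA counts are raw, as deposited by the authors, with duplicates kept per the file name.

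Spans came from a RefSeq gene table on GRCm38.p6, the assembly behind mm10, and gene strand from a RefSeq promoter table (86 of 105 members). Where it was missing, the strand of the peak was used. A peak in a small noncoding RNA gene was not credited to its host. Peak sequences were not used here. Coordinates count from 1. Distances run from the peak midpoint to the 3′ end of the span, rounded to whole nt. Intervals are exact (Clopper-Pearson, 95%) and cover counting error only. Python 3.11.15, pandas 2.3.3 and scipy 1.17.1 were used. The crediting step was tested on simulated data and recovered 100 of 100 planted peaks among 400 genes.

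Members and lists were chosen with earlier results of these data known. Each member with a peak is named, with up to 4 members without one per subfamily, up to 4 genes per pathway list by number of peaks, and marker genes with a peak, some of which are not reported here. Alternatives were other rules for crediting, width, position, strand, gene naming and merging of peaks. Since the peak list has no per-library values, no test was run.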

Additional observations from a re-analysis of the deposited data

How the results depend on the processing

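Of 70 alternative values, 60 stayed close to the reported one (within 1.5 times for counts, within the exact interval for shares and medians). The rules for single spans, strand, width and naming could not change the member counts. Those for single spans and strand could not change the number, width or position of member peaks either. All these fixed values are among the 60, which therefore overstates how much was tried. Each member peak lay in 1 span, those of known gene strand lay on it, and none was narrower than 34 nt. The genes dropped by the naming rule, Rab3ip and Rab5if, held 0 peaks. The members with a peak numbered 14 to 16 under the rules for overlap, single spans, strand, width, end position, naming and lengthened spans. Requiring at least 2 peaks per gene left 9 members and 4 Rab genes, and in the pathway lists 1 regulator and 0 effectors of Rab proteins, 4 regulators of Arf proteins, 0 Arf-like genes and 4 kinesin partners. The share of member peaks near the end was 68.1% in the last 5% of the span, a narrower window that cannot hold more than the reported 85.1%. In the last 2 kb it was 61.7%, also below the reported share, beside 55.3% of pairs in other genes. Without replicate 1 or without replicate 2, the hosted mature miRNAs with a count ranged from 0 to 1. No paired analysis was possible because the peak list carries no replicates and the miRNA libraries form a single group. Peak depth per library was not analysed here.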
